A study of Bos taurus with 6 samples.

Results

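Rab GTPases and vesicle coat genes were followed in bovine articular chondrocytes that had been treated with TGF-β1. The set comprised 82 of the 9155 genes with a symbol on the array, measured by 109 probe sets. Members were found by a rule on gene symbols, and 39 were numbered Rab GTPases. The other 43 were COPI and COPII coat genes, SAR1 and ARF GTPases, SEC22 genes, TRAPP tethering complex genes and p24 (TMED) cargo receptors. Affymetrix Bovine Genome arrays were hybridised with RNA from 6 micromass cultures, in which chondrocytes are plated at high density and continue to lay down cartilage matrix. In 3 cultures the cells were exposed for 8 hours to TGF-β1 at 5 ng/ml, after a night in culture, and 3 were untreated (the treatment protocol calls these vehicle). The chondrocytes were primary cells from the metacarpal-phalangeal joints of 3 cows, and each group was numbered 1 to 3. By the methods, cells of every cow were grown under both conditions, although the labels do not state that a number stands for a cow.

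Cartilage cells export large amounts of collagen and proteoglycan, and all of this cargo travels in coated vesicles or larger carriers. At the endoplasmic reticulum the GTPase SAR1 recruits the inner COPII coat (SEC23 and SEC24) and then the outer coat (SEC13 and SEC31), and TMED proteins and SEC24 gather cargo. TRAPP tethers the arriving vesicle at the Golgi, SEC22 helps it fuse, and ARF GTPases load the COPI coat that carries proteins back. Rab GTPases then mark each compartment, from the Golgi to endosomes, lysosomes and the cell surface, and recruit the tethers and motors that act there. The skeleton is sensitive to these genes in humans, where mutations of SEC23A, TRAPPC2 and RAB33B each cause a skeletal dysplasia.

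Values are centred log2 signals: the authors set the median of each probe set over the 6 arrays to 0, so a value says how an array stood relative to the others for that gene, and levels cannot be compared between genes. For the same reason the identity of the cells could not be checked by the level of COL2A1 or ACAN. Differences are TGF-β minus untreated within each replicate number, tested with limma with the number as a term (the paired fit) and adjusted over all 9155 genes. Rose and fell are used only of genes with an adjusted p under 0.05.

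The arrays differed by replicate more than by treatment. In the first principal component of the 82 members, which held 43.8% of their variance, the replicate 3 arrays scored -0.57 with TGF-β and -0.55 untreated, and the other 4 arrays scored 0.13 to 0.45. The replicate 3 cultures were also high in cell cycle genes, with a median over 10 such genes of 2.50 with TGF-β and 2.37 untreated, against -0.30 to -0.01 on the other arrays. Spike-in control transcripts (18 probe sets) were high on TGF-β array 2, with a median of 1.53 against -0.17 to 0.06 elsewhere. Of 6 chondrocyte markers measured, COMP rose and CNMD fell, and no fibroblast, macrophage, endothelial, osteoblast or cell cycle marker passed the test. The part of these differences in the results was not tested, so each called member is also given without each replicate. In bulk RNA, fewer cells of a type and less RNA per cell cannot be told apart.

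After 8 hours, 6 of the 82 members differed between TGF-β and untreated cultures. One Rab, RAB15, rose, and 5 members fell: RAB3D, RAB30, RAB34, TRAPPC1 and TRAPPC2L. These 6 genes are 7.32% of the members, against a background of 6.82% of all genes called (2.24% rose and 4.58% fell). A share so near the background is not a result about the set, and each gene is described on its own. At an unadjusted p under 0.05 the members counted 21 (25.6%), against 22.5% of all genes. The median difference over the 82 members was 0.02, against -0.01 over all genes, and 44 members (53.7%) had a positive difference, against 48.1% of all genes. The 95% interval of the difference lay within 0.5 log2 units of 0 for 61 members and within 1 for 80, the exceptions being RAB3D and RAB15. After quantile normalization the 1 member that rose was SEC23A, in place of RAB15, and the 1 that fell was RAB30. After median scaling the same 5 members fell and RAB15 lost its call. Shares of all genes called in these 2 settings are not given here, so the counts are not a result about the set.

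**Figure D1:**
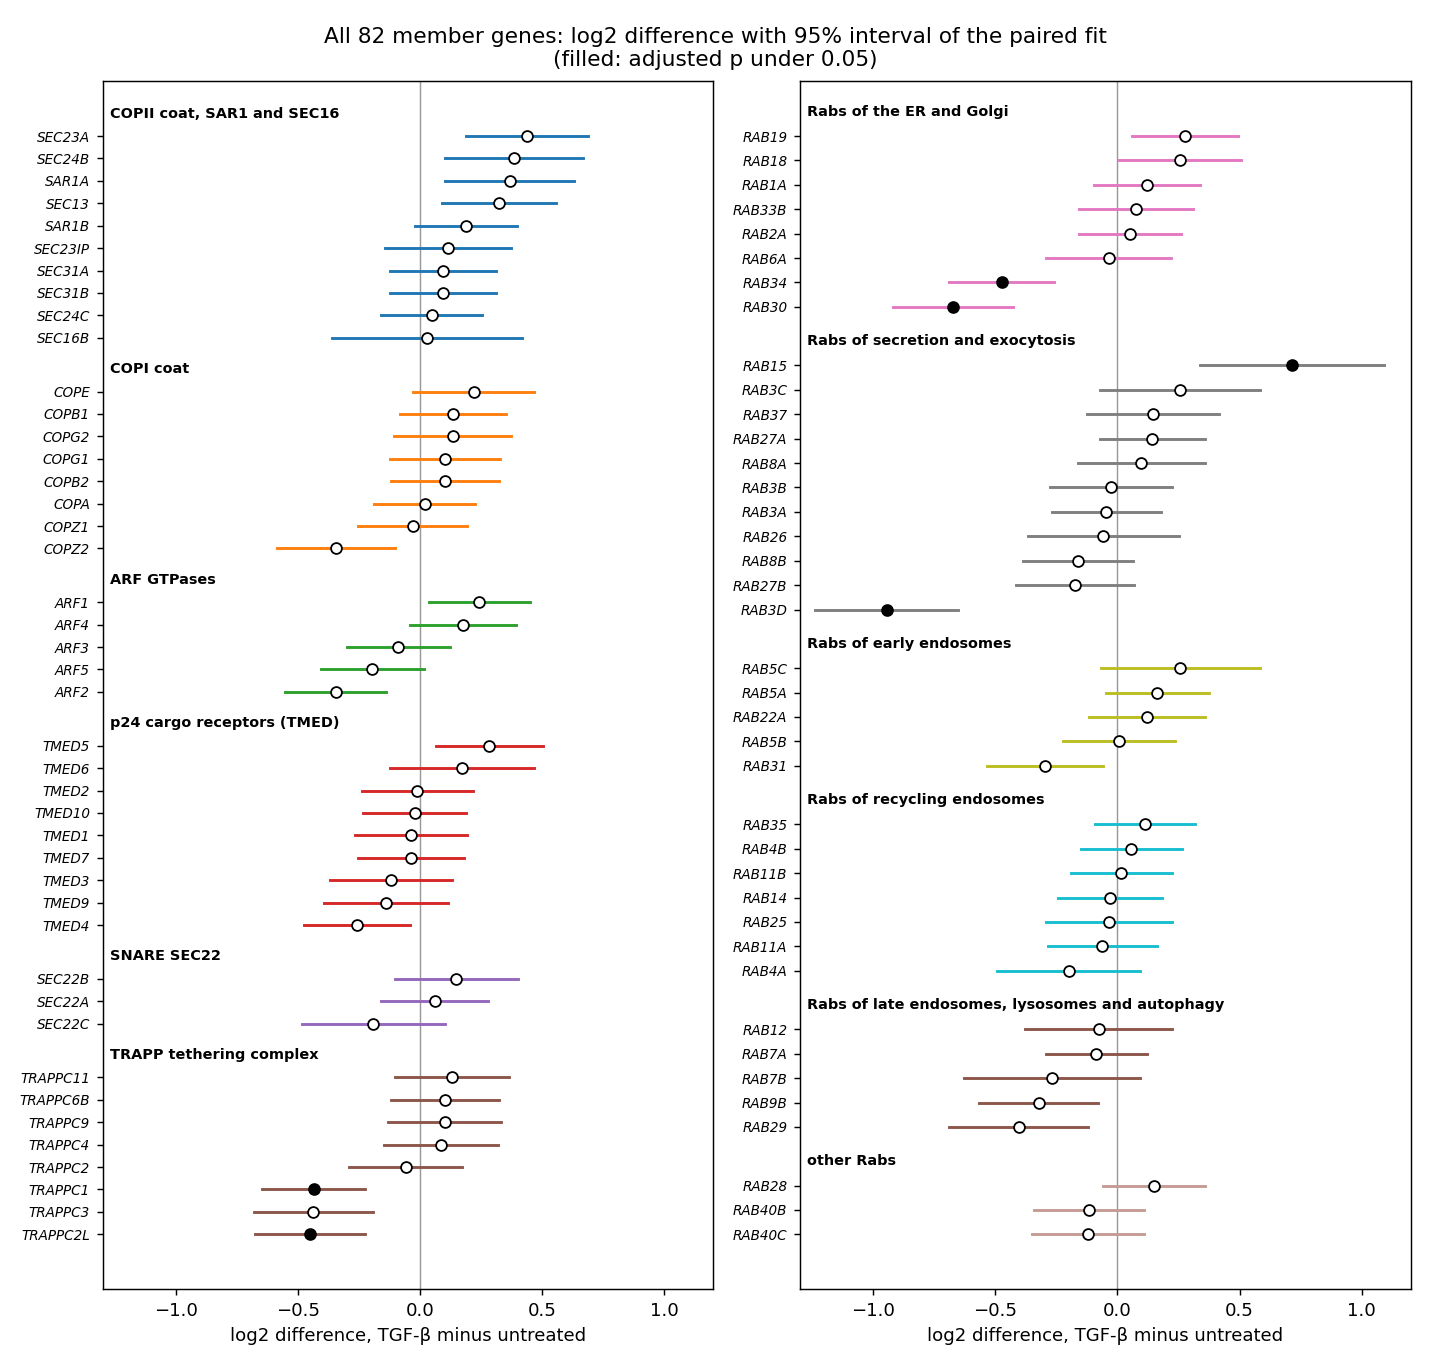
Difference of each of the 82 members between TGF-β and untreated cultures (log2, TGF-β minus untreated), grouped by role. Points are the paired fit's estimates and lines their 95% intervals, and filled points are the 6 genes with an adjusted p under 0.05. RAB3D at -0.95 and RAB15 at 0.71 lie farthest from 0.

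The largest difference was that of RAB3D, which marks secretory granules and vesicles in gland, mast and bone-resorbing cells. Its centred signal was -0.17, -0.61 and -0.47 on TGF-β arrays 1 to 3 and 1.03, 0.38 and 0.17 on untreated arrays 1 to 3. All TGF-β arrays lay below all untreated arrays, and replicate 1 was the highest in both groups. RAB3D fell by 0.95 ± 0.12 log2 units (SE, 95% interval -1.24 to -0.65, limma adjusted p = 0.00839), to 0.519 times the untreated signal. The difference was -0.82 without replicate 1 (adjusted p = 0.0253), -0.92 without replicate 2 (adjusted p = 0.0632) and -1.10 without replicate 3 (adjusted p = 0.00457). After quantile normalization the adjusted p was 0.0593.

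RAB15, a Rab of the endosomal recycling pathway in mammalian cells that was grouped here with the secretory Rabs, was the only member that rose. Its signal was 0.66, 0.01 and 0.90 on the TGF-β arrays and -0.36, -0.21 and -0.01 on the untreated arrays. The groups did not overlap, but TGF-β array 2 stood only just above untreated array 3, and replicate 2 gave a difference of 0.22 where replicates 1 and 3 gave 1.01 and 0.91. RAB15 rose by 0.71 ± 0.16 log2 units (SE, 95% interval 0.34 to 1.09, limma adjusted p = 0.0452), or 1.64-fold. The call was lost without replicate 1 (0.57, adjusted p = 0.148) and without replicate 3 (0.61, adjusted p = 0.125), and held without replicate 2 (0.96, adjusted p = 0.0235). It was also lost with the replicate number as a random block (adjusted p = 0.0711), after quantile normalization (0.0865) and after median scaling (0.0561).

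The other 9 Rabs of secretion and exocytosis did not pass the test. RAB3C, which acts in regulated exocytosis like RAB3D, had a difference of 0.26 (adjusted p = 0.341), with replicate differences of -0.14, 0.54 and 0.36. The remaining RAB3 genes, RAB3A and RAB3B, had differences of -0.04 and -0.03. RAB27A, a Rab that docks lysosome-related organelles at the plasma membrane, was 0.14 higher with TGF-β in the mean (probe sets at 0.32 and -0.04). RAB27B was 0.17 lower. RAB8A and RAB8B, which carry cargo from the Golgi to the cell surface and the cilium, also had opposite signs, 0.10 and -0.16, and all of these intervals included 0. RAB37 (0.14) and RAB26 (-0.06), both linked to secretory granules, completed this group.

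Among the 8 Rabs of the endoplasmic reticulum and Golgi, 2 fell, where 4.58% of all genes fell. RAB30, a Golgi Rab needed for the structure of that organelle, had a signal of -0.39, -0.43 and -0.07 on the TGF-β arrays and 0.07, 0.32 and 0.73 on the untreated arrays. Every TGF-β array was below every untreated array, and the replicate differences were -0.47, -0.75 and -0.81. RAB30 fell by 0.67 ± 0.10 log2 units (SE, 95% interval -0.92 to -0.43, limma adjusted p = 0.0141), to 0.627 times the untreated signal. Without replicates 1, 2 and 3 in turn the difference was -0.78, -0.64 and -0.61. Without replicate 2 the adjusted p was 0.0818, against 0.0218 without replicate 1 and 0.0451 without replicate 3.

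RAB34 positions lysosomes and is needed for primary cilia in mammalian cells. Its signal was -0.45, -0.43 and 0.48 on the TGF-β arrays and 0.05, -0.05 and 1.02 on the untreated arrays. Both replicate 3 arrays were high and the groups overlapped, while the 3 replicate differences were close together at -0.50, -0.38 and -0.54. RAB34 fell by 0.47 ± 0.09 log2 units (SE, limma adjusted p = 0.0288). Without replicates 1, 2 and 3 in turn the difference was -0.46, -0.52 and -0.44, and the call was lost each time (adjusted p = 0.127, 0.0739 and 0.102). It was also lost with the random block (adjusted p = 0.170) and after quantile normalization (0.0934).

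The other Rabs of the endoplasmic reticulum and Golgi had small positive or near-zero differences. RAB1A, which receives COPII vesicles at the Golgi, had a signal of 0.01, 0.22 and 0.03 with TGF-β and -0.03, -0.01 and -0.06 untreated. The groups did not overlap, yet the difference was only 0.12 (95% interval -0.10 to 0.34, adjusted p = 0.4997). RAB19 and RAB18, a Golgi Rab and a Rab of the endoplasmic reticulum and lipid droplets, were also non-overlapping, with differences of 0.28 (adjusted p = 0.132) and 0.26 (adjusted p = 0.209). RAB33B, a Golgi Rab that also binds the autophagy protein ATG16L1, differed by 0.08. RAB2A and RAB6A, which act in traffic between the Golgi and the endoplasmic reticulum, differed by 0.05 and -0.04. The 2 probe sets of RAB6A had opposite signs, at -0.22 and 0.15.

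**Figure D2:**
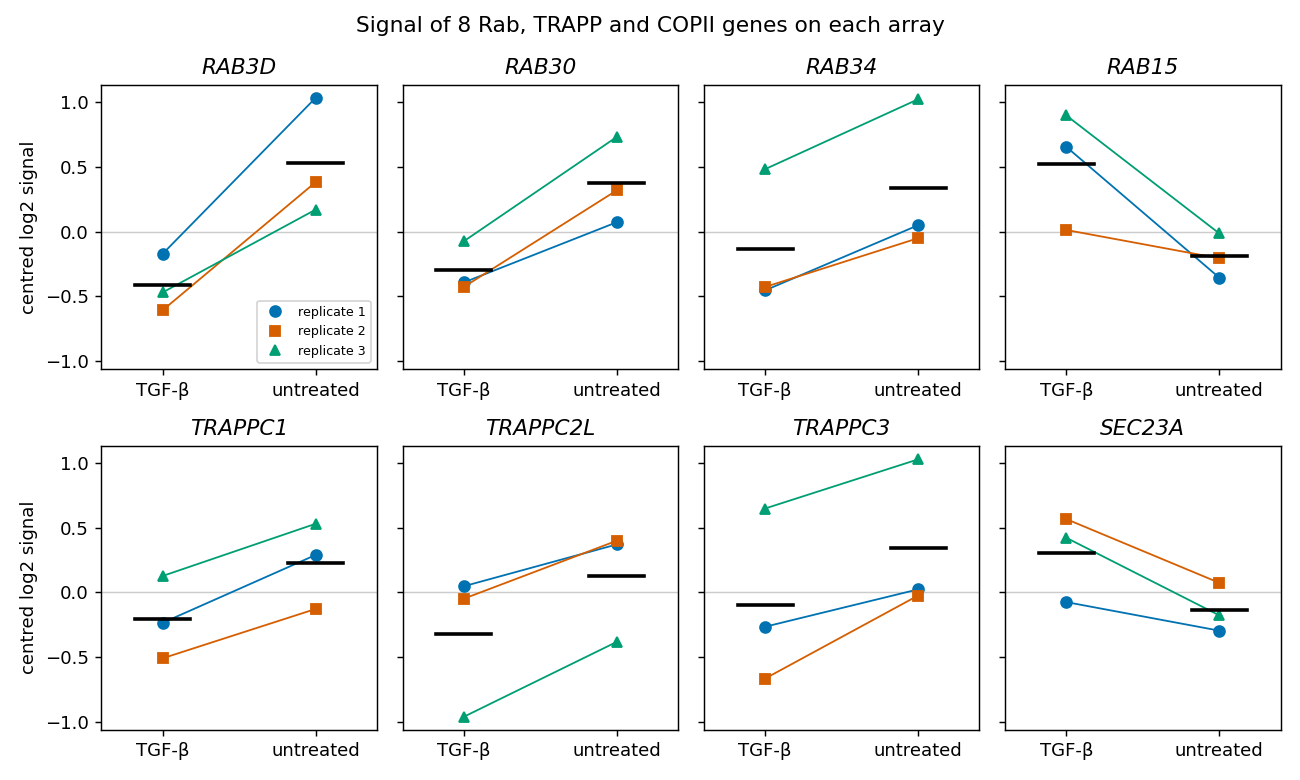
Centred log2 signal of 8 genes on each array, with TGF-β left of untreated in each panel. Symbols are arrays, lines join arrays of the same replicate number and black bars are group means. RAB3D, RAB30 and RAB15 do not overlap between the groups. In RAB34, TRAPPC1 and TRAPPC2L the lines run nearly in parallel while the replicates stand apart. The replicates of TRAPPC3 also stand apart, with differences of -0.29, -0.64 and -0.38.

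Of the 8 measured subunits of TRAPP, the complex that tethers vesicles and activates RAB1, 2 fell, where 4.58% of all genes fell. TRAPPC1, a core subunit, had a signal of -0.23, -0.51 and 0.13 on the TGF-β arrays and 0.29, -0.13 and 0.53 on the untreated arrays. The groups overlapped, with replicate 2 low and replicate 3 high in both, and the replicate differences were -0.52, -0.38 and -0.40. TRAPPC1 fell by 0.44 ± 0.09 log2 units (SE, 95% interval -0.65 to -0.22, limma adjusted p = 0.0352).

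TRAPPC2L, a core subunit related to TRAPPC2, was ordered in the opposite way, with replicate 3 low in both groups. Its signal was 0.05, -0.05 and -0.96 on the TGF-β arrays and 0.37, 0.40 and -0.38 on the untreated arrays, so the groups overlapped while every replicate was lower with TGF-β. TRAPPC2L fell by 0.45 ± 0.10 log2 units (SE, 95% interval -0.68 to -0.23, limma adjusted p = 0.0381). Neither TRAPP gene was called without any 1 replicate: the adjusted p was 0.177, 0.103 and 0.0943 for TRAPPC1, and 0.0912, 0.133 and 0.146 for TRAPPC2L, without replicates 1, 2 and 3. The differences were then -0.39, -0.46 and -0.45 for TRAPPC1, and -0.51, -0.45 and -0.39 for TRAPPC2L. Both calls were also lost with the random block (adjusted p = 0.0859 and 0.161) and after quantile normalization (0.111 and 0.0502).

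TRAPPC3, the core subunit closest to these in size of difference, stood just outside the threshold. Its signal was -0.27, -0.67 and 0.65 on the TGF-β arrays and 0.02, -0.02 and 1.03 on the untreated arrays, and each replicate was lower with TGF-β. The difference was -0.44 ± 0.10 (SE, 95% interval -0.68 to -0.19, limma adjusted p = 0.0541). The other subunits had values on both sides of 0: TRAPPC2, the gene of human spondyloepiphyseal dysplasia tarda, had a difference of -0.06 (95% interval -0.29 to 0.17), and TRAPPC4, TRAPPC6B, TRAPPC9 and TRAPPC11 had differences of 0.09 to 0.13. The median over the 8 subunits was 0.01.

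None of the 18 COPI and COPII genes passed the adjusted test, although the COPII genes leaned one way. All 10 measured members of the COPII coat, SAR1 and SEC16 list had a positive difference, with a median of 0.15 (0.15, 0.25 and 0.20 in replicates 1, 2 and 3), and 7 were higher with TGF-β in all 3 replicates, against 19.8% of all genes. At an unadjusted p under 0.05, 4 of the 10 were higher (8.41% of all genes). The medians of the list by array were 0.10, 0.07 and 0.07 with TGF-β and -0.08, -0.02 and -0.12 untreated. The list held 14 genes, of which 10 were measured, and was written with earlier results of these data known. The shared sign is only a description, as the genes were also read from the same arrays and the list was not tested.

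SEC23A, an inner coat subunit, came closest to the threshold. Its signal was -0.07, 0.57 and 0.42 on the TGF-β arrays and -0.30, 0.07 and -0.18 on the untreated arrays. The groups overlapped, as TGF-β array 1 lay below untreated array 2, but each replicate was higher with TGF-β, by 0.22, 0.49 and 0.60. The difference was 0.44 ± 0.11 (SE, 95% interval 0.19 to 0.69, limma adjusted p = 0.0569), and after quantile normalization it was 0.48 (adjusted p = 0.0487).

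SEC13, an outer coat subunit that also belongs to the nuclear pore, had a signal of 0.10, 0.12 and 0.37 with TGF-β and -0.10, -0.15 and -0.13 untreated. These groups did not overlap, and neither did those of SEC24B, a cargo-binding inner coat subunit, at 0.45, 0.26 and 0.04 with TGF-β and -0.15, -0.20 and -0.04 untreated. Their differences were 0.32 (adjusted p = 0.107) and 0.38 (adjusted p = 0.112). The initiating GTPases SAR1A and SAR1B were higher in every replicate, by 0.18 to 0.61 and by 0.12 to 0.23, with mean differences of 0.37 (adjusted p = 0.105) and 0.19 (adjusted p = 0.277). The remaining genes, SEC23IP, SEC31A, SEC31B, SEC24C and SEC16B, ranged from 0.03 to 0.11, and SEC16B varied most among replicates, from -0.30 to 0.54.

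The COPI coat had a median difference of 0.10, with 6 of 8 genes positive (48.1% of all genes). COPB1, the β subunit, was the only COPI gene without overlap, at 0.01, 0.09 and 0.19 with TGF-β and -0.01, -0.09 and -0.01 untreated, a difference of 0.13 (adjusted p = 0.453). COPE had a difference of 0.22 (adjusted p = 0.278), of which replicate 2 gave 0.44. COPZ2, a variant ζ subunit, was the exception in sign. Its signal was -1.15, 0.26 and -0.09 with TGF-β and -0.60, 0.52 and 0.13 untreated, both replicate 1 arrays being low, and the difference was -0.34 (95% interval -0.59 to -0.10, adjusted p = 0.101). One of its 2 probe sets alone passed the adjusted test over probe sets (-0.48, adjusted p = 0.0498), the other being at -0.21. The widely used ζ subunit, COPZ1, had a difference of -0.03, and COPA, COPB2, COPG1 and COPG2 had differences of 0.02 to 0.13.

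**Figure D3:**
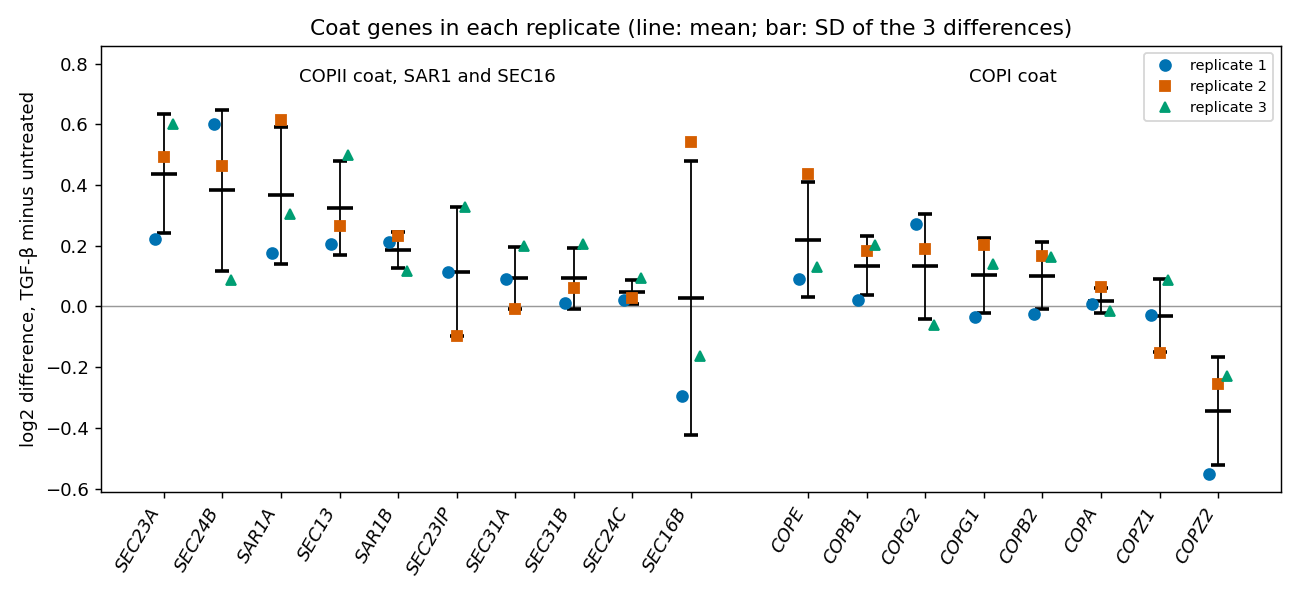
Differences between TGF-β and untreated arrays (log2) in each of the 3 replicates for the COPII and the COPI genes. Symbols are replicates, horizontal lines the mean and bars the SD of the 3 differences. The COPII means all lie above 0, from 0.03 to 0.44, and COPZ2 at -0.34 is the lowest of the COPI genes.

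The ARF GTPases had differences of both signs, and none of the 5 passed the test. ARF1, the main GTPase that loads COPI, was 0.04, 0.27 and 0.22 with TGF-β and -0.17, -0.01 and -0.02 untreated. These groups did not overlap, but the difference of 0.24 had an adjusted p of 0.160. The replicate differences were alike (0.21, 0.28 and 0.25) only as means over 3 probe sets. In replicate 2 the single probe sets gave 0.80, 0.11 and -0.08. ARF2, a close relative of ARF1, had the opposite sign: -0.14, 0.08 and -0.36 with TGF-β and 0.26, 0.43 and -0.08 untreated, with a difference of -0.35 (95% interval -0.56 to -0.14, adjusted p = 0.0671). ARF4 and ARF5, which share roles at the Golgi, had differences of 0.18 and -0.20, and ARF3 of -0.09.

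The 9 TMED cargo receptors had a median of -0.04. TMED5 was higher with TGF-β in each replicate (0.32, 0.16 and 0.37, with a difference of 0.28 and adjusted p = 0.130), and TMED4 lower in each (-0.31, -0.14 and -0.32, with a difference of -0.26 and adjusted p = 0.156). TMED2 and TMED10, which pair with each other in the p24 complex, differed by -0.01 and -0.02, with 95% intervals of -0.24 to 0.21 and -0.23 to 0.19. TMED6 had a difference of 0.17 that ran from -0.13 to 0.45 between replicates. TMED1, TMED3, TMED7 and TMED9 had differences of -0.14 to -0.04. The SEC22 genes also had both signs. SEC22B, which acts between the endoplasmic reticulum and the Golgi, was at 0.15, SEC22A at 0.06 and SEC22C at -0.19.

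None of the Rabs grouped under early, recycling and late endosomes passed the test, RAB15 and RAB34 having been grouped elsewhere. The 5 Rabs of late endosomes, lysosomes and autophagy all had negative differences, with a median of -0.27, where 48.1% of all genes had a positive difference. This shared sign is only a description, as the list was written with earlier results of these data known and was not tested. RAB29, a Rab known for recruiting the kinase LRRK2, had a signal of -0.12, -0.57 and 0.04 with TGF-β and 0.47, -0.04 and 0.13 untreated. The groups overlapped, and replicate 3 gave a difference of only -0.09 against -0.59 and -0.53 in replicates 1 and 2. The difference was -0.40 (adjusted p = 0.102) and, without replicate 3, -0.56 (adjusted p = 0.0454). RAB9B, of the family that returns receptors from late endosomes to the Golgi, had a difference of -0.32 (adjusted p = 0.118) and was lower in all 3 replicates. RAB7A, the main Rab of late endosomes, differed by -0.09 (95% interval -0.29 to 0.12), as the mean of 2 probe sets of opposite sign (0.11 and -0.29). RAB12 differed by -0.08 and RAB7B by -0.27, the last mostly through replicate 3 (-0.73).

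RAB31, which carries cargo from the trans-Golgi network to endosomes, was the third gene with all TGF-β arrays below the untreated arrays. Its signal was -0.03, -0.32 and -0.27 with TGF-β and 0.10, 0.14 and 0.03 untreated, a difference of -0.30 (95% interval -0.53 to -0.06, adjusted p = 0.140). The RAB5 genes, which drive fusion of early endosomes, had differences of 0.16 (RAB5A), 0.01 (RAB5B) and 0.26 (RAB5C). RAB5B was the one member whose probe sets differed by over 0.5, at -0.28 and 0.29, so its mean near 0 averages readings of opposite sign. RAB22A differed by 0.12.

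The 7 Rabs on the recycling list, which did not hold RAB15, all had 95% intervals within 0.5 of 0. RAB11A, the Rab of the slow recycling route, differed by -0.06, and RAB11B by 0.02. RAB35, a fast recycling Rab, differed by 0.11 with nearly equal replicates (0.12, 0.12 and 0.09). RAB4A, of the same fast route, had the lowest value of the group, -0.20 (adjusted p = 0.407), with replicate differences of 0.03, -0.12 and -0.52. RAB4B, RAB14 and RAB25 lay between -0.04 and 0.06. Of the other Rabs, RAB28, found at cilia, had a difference of 0.15, and RAB40B and RAB40C, which join ubiquitin ligases, had differences of -0.12 each.

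Without regard to the test, 11 members (13.4%) did not overlap between the groups, against 10.9% of all genes. In 8 the TGF-β arrays were above the untreated arrays (5.05% of all genes), namely ARF1, COPB1, SEC13, SEC24B, RAB15, RAB19, RAB18 and RAB1A, and in 3 they were below (5.83% of all genes), namely RAB3D, RAB30 and RAB31. Of these 11, 3 passed the adjusted test. The other 3 called genes, RAB34, TRAPPC1 and TRAPPC2L, overlapped between the groups and were called on differences within replicates.

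In most members the 3 replicate means were spread more widely than the 2 group means. The range of the 3 replicate means exceeded the size of the TGF-β difference in 67 of the 82 members (81.7%), against 84.3% of all genes. The median range was 0.34 log2 units, and the median size of the TGF-β difference 0.13. These measures are unlike: a range over 3 means of 2 arrays each tends to exceed a difference of 2 means of 3 arrays each. That holds even where replicates do not differ, so these values cannot show that replicates differed by more than the treatment groups. The widest ranges were those of RAB5C (1.402), TMED9 (1.39), COPZ2 (1.27), TRAPPC3 (1.18) and RAB4A (1.02). Replicate 3 stood highest above the mean of replicates 1 and 2 in RAB5C (1.17), TRAPPC3 and TMED9 (1.07 each) and RAB34 (0.97), and farthest below it in TRAPPC2L (-0.86), RAB4A (-0.71) and RAB7B (-0.68). Compared on the groups alone, without the replicate number, 0 of the 82 members and 0 of all genes passed the adjusted test in limma, with 6 members (7.32%) and 5.84% of all genes at an unadjusted p under 0.05. The methods' t-test also called 0 members and 0 of all genes after adjustment. Before it, 1 member (1.22%), RAB3D, had a p under 0.05, against 4.43% of all genes.

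**Figure D4:**
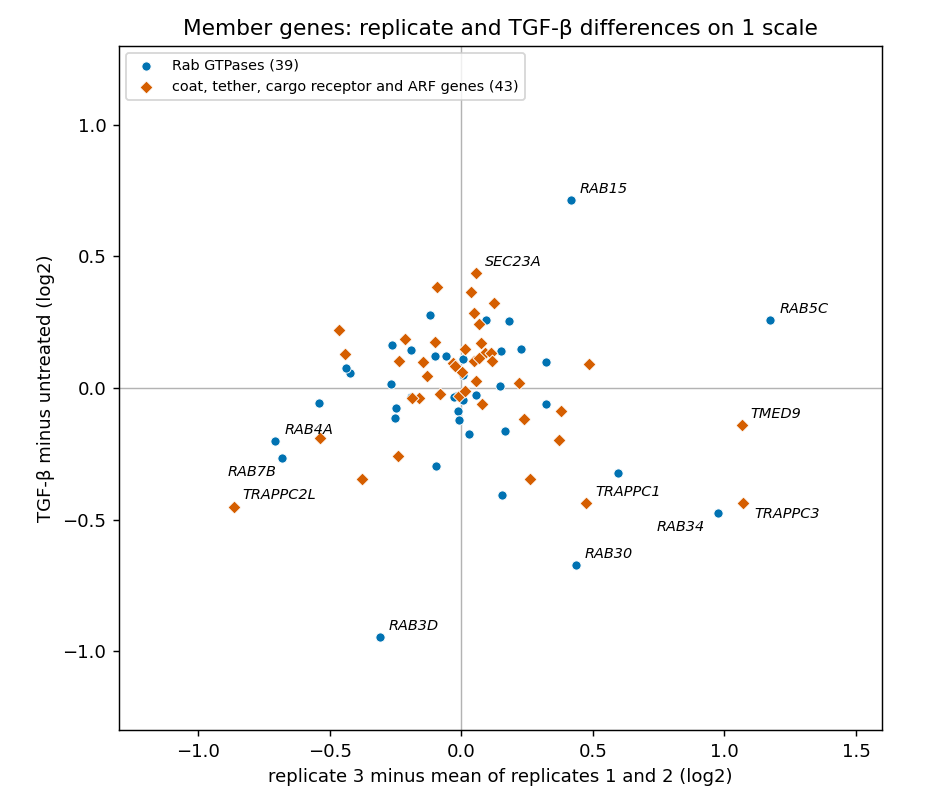
Each of the 82 members by the standing of replicate 3 (horizontal axis, mean of its arrays minus the mean of replicates 1 and 2, log2) and by the TGF-β minus untreated difference (vertical axis, log2). Rab GTPases are dots and the other members diamonds. The replicate axis runs from -0.86 (TRAPPC2L) to 1.17 (RAB5C) and the TGF-β axis from -0.95 (RAB3D) to 0.71 (RAB15).

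The other genes of the trafficking pathway were read from 7 lists. Of 116 measured genes for Rab and ARF regulators, cargo receptors, SNAREs and tethers, clathrin adaptors, exocyst and retromer, and secretory transcription factors, 1 rose and 2 fell, against 2.24% and 4.58% of all genes, with a median difference of -0.02. CREB3L2, a transcription factor that in mouse chondrocytes activates SEC23A, had a signal of 0.24, 0.87 and -0.47 with TGF-β and -0.24, 0.25 and -1.89 untreated. Both replicate 3 arrays were low and the groups overlapped, but each replicate was higher with TGF-β, by 0.49, 0.62 and 1.42. CREB3L2 rose by 0.84 ± 0.18 log2 units (SE, limma adjusted p = 0.0381), and by 1.02 without replicate 1 (adjusted p = 0.0291) and 0.56 without replicate 3 (adjusted p = 0.0492). The call was lost without replicate 2 (0.95, adjusted p = 0.125) and with the replicate number as a random block (adjusted p = 0.167).

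CREB3, a transcription factor of the same family, was at -0.49, -0.08 and -0.27 with TGF-β and 0.08, 0.24 and 0.47 untreated. The groups did not overlap, and CREB3 fell by 0.55 ± 0.11 log2 units (SE, limma adjusted p = 0.0308). AP1S2, a small subunit of the AP-1 clathrin adaptor, fell by 0.45 (adjusted p = 0.0423). Neither was called without any 1 replicate (adjusted p of 0.110, 0.0552 and 0.108 for CREB3, and of 0.1498, 0.0862 and 0.159 for AP1S2, without replicates 1, 2 and 3). The differences were then -0.54, -0.66 and -0.45 for CREB3, and -0.45, -0.52 and -0.37 for AP1S2. AP1S2 also lost its call with the random block (adjusted p = 0.0866) and after quantile normalization (0.0815). Of the 24 SNAREs and tethers of the endoplasmic reticulum and Golgi, none passed the test, 16 had positive differences and the median was 0.13. Of the 18 Rab regulators, none passed and 14 had negative differences, with a median of -0.05. Of all genes, 48.1% had a positive difference, and the signs in these lists were not tested.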

How the data were processed

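Gene expression was measured with Affymetrix Bovine Genome arrays in 3 TGF-β and 3 untreated micromass cultures. The deposited log2 values were made by the authors in GeneSpring with Robust Multichip Average and centred on each probe set's median over the arrays. Dim probe sets could therefore not be removed, and scanner files were not used here. Arrays have no read depth, and precision is limited by the number of arrays.

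Of 24128 probe sets, 112 controls were left out. The array annotation gave 1 symbol to 13292 of the other 24016, several to 86 and none to 10638, and 13263 were brought to current symbols through Entrez identifiers in the RefSeq table (ARS-UCD2.0 assembly). Probe sets of a gene were averaged (9155 genes, 2913 with more than 1 probe set). Of the members, 58 had 1 probe set and 24 had 2 or 3.

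The linear model was fitted in limma 3.58.1 under R 4.3.3, with statmod 1.5.0 for the random block. It held the treatment and the replicate number, and its moderated tests (lmFit, eBayes) were 2-sided, with p-values adjusted by Benjamini-Hochberg over 9155 genes at 0.05. Residual degrees of freedom were 2, and only 1 with a replicate left out, so a call can be lost there while the difference stays alike. Deviations from group means correlated at 0.740, 0.694 and 0.845 between arrays of the same number, and at -0.683 to 0.185 otherwise, so the numbers were taken to pair the arrays. No array copied another (at most 56 values were identical in any of 15 pairs).

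In simulated data with 200 changed of 9155 genes (20 draws), the model called 30.2%, 96.4% and 99.9% of genes shifted by 0.5, 1 and 2 log2 units, and 5.1% of its calls were false. On the groups alone it called 0%, 23.6% and 97.9% of them. The simulation gave every gene a replicate shift and drew its noise from the paired fit's own variance estimate. It therefore favoured the paired model by construction and cannot test the calls made in the real data.

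Alternatives were the groups alone, the number as a random block, each replicate left out, quantile normalization, median scaling, the probe set of largest SD, no x_at or s_at probe sets, robust eBayes, symbols without update, and the methods' t-test. Members, role groups and pathway lists were chosen with earlier results of these data known. Genes named by rule were the called members, up to 3 of smallest p per role, reference members and called pathway genes. The remaining members were named after their values were seen, to account for the whole set. The reference members SEC24D, ARF6 and RAB23 were not among the members. Pandas 2.3.3, numpy 2.4.6 and matplotlib 3.10.9 (Python 3.11.15) were used.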

Additional observations from a re-analysis of the deposited data

How the results depend on the processing

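Without the replicate block, 0 members rose and 0 fell, against 1 and 5 in the paired fit, and 0 of the other pathway genes rose and 0 fell, against 1 and 2. The methods' t-test likewise gave 0 in each case. With the number as a random block, 0 members rose and 2 fell (RAB3D and RAB30), and 0 other pathway genes rose and 1 fell. After quantile normalization 1 member rose, SEC23A in place of RAB15 (adjusted p = 0.0865), and 1 fell, RAB30, RAB3D being at an adjusted p of 0.0593, and 1 other pathway gene fell. After median scaling 0 members rose (RAB15, adjusted p = 0.0561). With the probe set of largest SD, where p was adjusted over all 24016 probe sets and not over genes, 4 other pathway genes fell. Leaving out 1 replicate gave 0 to 1 members that rose and 0 to 3 that fell, and 0 to 1 other pathway genes in each direction. The groups alone and the methods' t-test called 0 of all genes. For the other settings the share of all genes called is not given here. The members without overlap between the groups numbered 13 to 21 above and 5 to 14 below with 2 replicates, where 12.8% to 16.9% and 13.1% to 18.3% of all genes did not overlap. Over 85 genes and 12 alternatives, 942 of 1020 values kept their direction and side of the threshold, and 25 changed sign. Another 2 gained a call (SEC23A after quantile normalization, RAB29 without replicate 3). The 51 lost calls all fell on the 9 genes called in the paired fit, so the 942 came mostly from uncalled genes. All 9 lost the call without the replicate block and by the methods' t-test. Symbols without update, robust eBayes and leaving out x_at and s_at probe sets changed none of the 85. The update had changed no member's symbol.

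All sign changes were of members whose difference lay within 0.08 of 0. RAB5B was at -0.0020 after median scaling and at -0.28 by its probe set of largest SD, COPA at -0.0099 by the same choice, and RAB11B at -0.013 after quantile normalization. Differences with 1 replicate left out ran from -0.0039 to 0.037 for COPA, -0.090 to 0.030 for COPZ1, -0.10 to 0.0098 for RAB11A, -0.0034 to 0.044 for RAB11B, -0.25 to 0.018 for RAB12, -0.067 to 0.010 for RAB14, -0.13 to 0.084 for RAB25, -0.19 to 0.12 for RAB26, -0.0061 to 0.14 for RAB33B, -0.092 to 0.086 for RAB3B, -0.061 to 0.080 for RAB5B, -0.16 to 0.037 for RAB6A, -0.23 to 0.19 for SEC16B, -0.11 to 0.032 for TMED1, -0.053 to 0.020 for TMED10, -0.087 to 0.041 for TMED2, -0.092 to 0.0064 for TMED7 and -0.11 to 0.027 for TRAPPC2. The cause was not tested. With 3 arrays a group, small changes may have gone uncalled, and a p above the threshold does not show that a gene did not differ.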

Other observations

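Probe sets annotated with several symbols were kept out of the set, and 3 of these included a Rab. The probe set shared by AIFM1 and RAB33A had a difference of -0.41 between TGF-β and untreated arrays (limma adjusted p = 0.0718 over probe sets). Both probe sets shared by RAB9A and TCEANC were also lower in the mean with TGF-β, at -0.18 (adjusted p = 0.484) and -0.26 (adjusted p = 0.466). None of the 3 passed the test.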
